A study of Mus musculus with 98 samples.

Results

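The hippocampi of PS19 mice that had carried a control virus (PhP.eB vector) for 6 months were compared with those of 10-month mice that had carried the vector for 2 weeks. These 10 RNA-seq samples, 5 of each kind, were chosen by their labels from the 98 samples of the series, and their count tables were joined by gene symbol. The study examined virus-driven expression of Acss2 (upACSS2), whose product converts acetate to acetyl-CoA. The PS19 mice, a strain with a transgene for mutant human tau, were males of 8.5 to 9 months, injected at 2.5 months with 1.5e+10 vg (vector genomes) of the vector. Their dorsal hippocampus was taken 30 min after a memory test that followed training by 24 h. The 10-month mice were C57BL6 males that received 1.2e+11 vg behind the eye, and their dorsal hippocampus was taken 30 min after fear conditioning itself. Genotype therefore goes together with strain, count table, dose, time since injection, behaviour and age. The contributions of these to any difference below cannot be told apart. Further groups served as side values. There were 5 PS19 vector mice aged 3.5 months at 1 month after injection. A group of 5 PS19 mice with the Acss2 virus was aged 8.5 to 9 months, at 6 months after injection. For alternatives only, 5 PS19 mice with the Acss2 virus aged 3.5 months, at 1 month, were added. All these PS19 mice received 1.5e+10 vg at 2.5 months. The 6 C57BL6 mice with the Acss2 virus, aged 10 months, received 1.2e+11 vg 2 weeks before the tissue was taken. The 12 vector mice of 22 to 23 months received 1.5e+11 vg, 2 months before the tissue was taken. Mouse 5 of the 1-month vector mice has a treatment label that names the Acss2 virus, and groups follow the titles. The labels do not say whether mice of a group shared a litter.

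As background, neurons of PS19 mice build up phosphorylated tau in the hippocampus with age, and the mice are widely used as a model of tau-driven neurodegeneration. Around such neurons, microglia, the resident macrophages of the brain, pass from a resting program marked by P2ry12 and Tmem119 into a program that depends on the receptor Trem2 and is marked by Cst7, Itgax and Clec7a. Astrocytes respond with intermediate filament proteins, and both cell types make complement proteins that can tag synapses.

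Library totals ran from 12186306 to 22764555 counts in the PS19 mice and from 5123582 to 10839489 counts in the 10-month mice. The libraries of the 2 groups also differed in composition. Mitochondrial transcripts took 3.48 to 4.09% of the counts in the PS19 mice and 5.12 to 6.65% in the 10-month mice, and the ribosomal RNA gene CT010467.1 took 0.117 to 0.228% against 0.453 to 0.922%. CPM stands for the count scaled to a library of 1e+06 counts. A sum of 5 nuclear noncoding RNAs (Malat1, Meg3, Snhg11, Kcnq1ot1 and Mir124a-1hg) was 1731 to 2616 CPM of total counts in the PS19 mice and 423 to 590 in the 10-month mice. In the 6-month PS19 mice with the Acss2 virus that sum was 734 to 1603, against 408 to 526 in their 10-month counterparts. The 1-month PS19 vector mice, from the same count table as the 6-month ones, had a sum of 459 to 757 CPM except for mouse 4. In mouse 4 the sum was 1773 CPM. The 1-month mice had 4.28 to 5.96% mitochondrial transcripts and 0.397 to 0.812% CT010467.1. The shares of mitochondrial transcripts and CT010467.1 thus differed within 1 count table too, as did the noncoding RNA sum apart from 1-month mouse 4. Of 15371 genes tested with edgeR, 4541 (29.5%) had an adjusted p under 0.05 and are called changed here: 14.7% were higher and 14.9% lower in the PS19 mice. This balance depends on the scaling: without TMM, edgeR's correction for library composition, 3481 genes were higher and 1406 lower, and the median of all genes was 0.12. The median log2 fold change of all genes tested was 0.01. In bulk tissue, more cells of a type and more RNA per cell cannot be told apart.

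Prnp, the prion protein gene (GRCm38 chromosome 2, 131909928 to 131938429, plus strand), separated the genotypes and matched the labels. The PS19 transgene is driven by Prnp sequence, and the counts do not separate transgene reads from those of the endogenous gene. Prnp was 1974, 2115, 1652, 1694 and 1950 CPM of the scaled library size in PS19 mice 1 to 5. It was 838, 874, 1057, 971 and 920 CPM in 10-month mice 1 to 5. Every PS19 mouse lay above every 10-month mouse, at means of 1877 ± 197 and 932 ± 86.2 CPM (SD, n = 5 each). The ratio was 2.01, with a two-sided exact permutation p of 0.00794, the smallest that 5 against 5 can give, or 0.0238 adjusted over 3 genes. One 1-month PS19 mouse with the Acss2 virus, used only in alternatives, had 929 CPM, a level of the other genotype. The aged vector mice, which are not PS19, had 795 to 950 CPM.

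Mapt, the mouse tau gene (chromosome 11, 104231390 to 104332090, plus strand), did not differ beyond its spread. It was 507, 562, 519, 447 and 505 CPM in the PS19 mice and 507, 527, 515, 610 and 497 CPM in the 10-month mice, so the groups overlapped throughout. The ratio was 0.956 (exact permutation p = 0.429, adjusted 0.643). Acss2, the gene carried by the study's other virus, was 42.8 to 55.6 CPM in the PS19 vector mice and 43.8 to 50.5 CPM in the 10-month vector mice (ratio 1.02, exact permutation p = 0.738, adjusted 0.738).

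**Figure D1:**
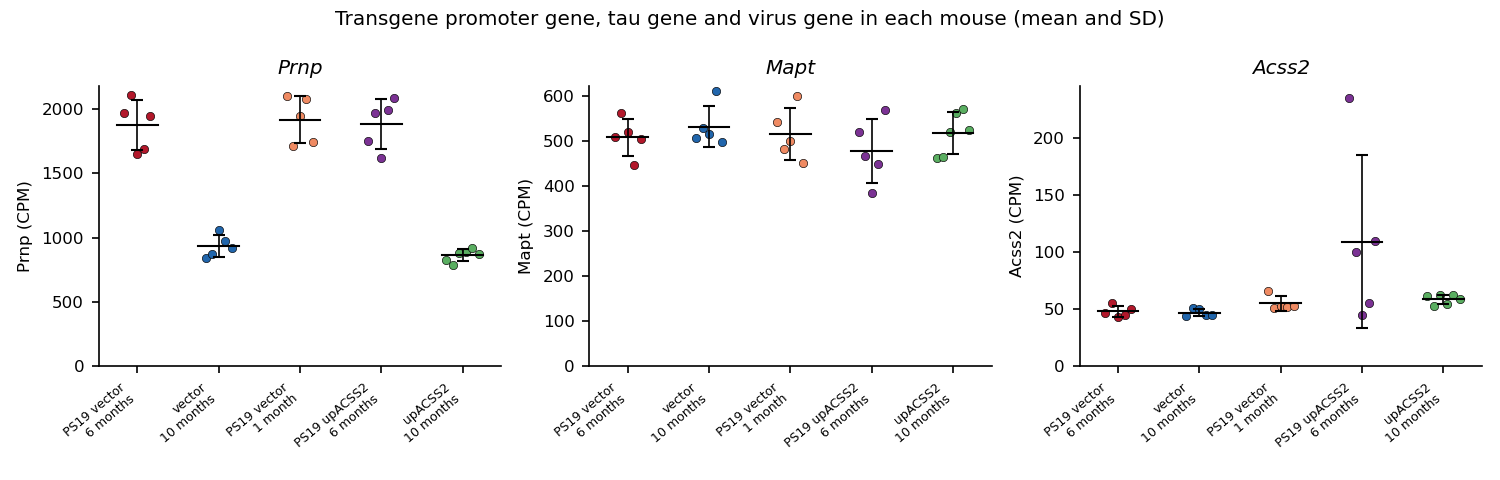
Prnp, Mapt and Acss2 in CPM (linear axes from 0) in each mouse of 5 groups. Points are mice, horizontal lines are means and bars are SD. All PS19 mice lie above 1600 CPM of Prnp and all others below 1060 CPM, Mapt overlaps in all groups, and Acss2 is raised in some of the PS19 mice with the Acss2 virus.

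Genes of disease-associated microglia were higher in the PS19 mice. All 25 members of that list were tested: 15 rose, 2 fell and 8 were not called, at a median log2 fold change of 1.04. Of all genes tested 14.7% rose and 14.9% fell. In 8 of the 25 all PS19 mice lay above all 10-month mice, a pattern found in 10.4% of all genes tested. In 2 of the 25 all lay below (10.2% of all genes). Within the PS19 group the order was similar across members: PS19 mouse 3 was the highest of the 5 in 21 of the 25 genes and PS19 mouse 2 the lowest in 20.

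The members with the largest changes were nearly silent in the 10-month mice. Itgax, the integrin subunit CD11c (chromosome 7, 128129547 to 128150657, plus strand), was 6.87, 1.65, 19.9, 12.1 and 12.6 CPM in PS19 mice 1 to 5 and 0.475, 0.614, 0.125, 0.203 and 0.404 CPM in the 10-month mice. The groups did not overlap, and its log2 fold change was 4.81 ± 0.94 (SE, adjusted p = 0.0014, edgeR). Clec7a, the receptor dectin-1, was 4.20, 2.28, 23.5, 13.3 and 12.95 CPM in the PS19 mice against 0.125 to 0.854 CPM (log2 fold change 4.44 ± 0.91, adjusted p = 0.00189, edgeR). Cst7, which encodes the protease inhibitor cystatin F (chromosome 2, 150570415 to 150578944, plus strand), was 4.45, 1.31, 7.95, 4.80 and 7.09 CPM. The 10-month mice had 0 or 1 read of Cst7 each, so its fitted log2 fold change of 5.35 ± 1.39 (adjusted p = 0.00894, edgeR) rests on very few reads on that side.

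Trem2, the lipid-sensing receptor of microglia, was 25.5, 15.7, 52.2, 38.2 and 33.6 CPM in the PS19 mice and 12.1, 17.2, 15.1, 13.8 and 13.9 CPM in the 10-month mice. PS19 mouse 2 fell inside the range of the 10-month mice and the other 4 lay above it (log2 fold change 1.20 ± 0.33, adjusted p = 0.0117, edgeR). Tyrobp, its signalling adaptor, had a log2 fold change of 1.04 ± 0.31 (adjusted p = 0.0205, edgeR), and the call was lost without PS19 mouse 3 (adjusted p = 0.0535), 10-month mouse 1 or 10-month mouse 3. The lysosomal protein gene Cd68 ranged from 10.5 to 34.3 CPM in the PS19 mice and from 5.37 to 9.12 CPM in the 10-month mice, a log2 fold change of 1.59. Ctsd, the protease cathepsin D, rose by 1.24, the surface protein gene Cd52 by 2.43 and the lysozyme gene Lyz2 by 1.92 on the log2 scale.

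Not all members of the program moved. Apoe, the lipid carrier of astrocytes and activated microglia, was 1976, 1553, 3427, 2499 and 2065 CPM in the PS19 mice and 2195 to 2955 CPM in the 10-month mice (log2 fold change -0.08, adjusted p = 0.761, edgeR). Fth1 and Fabp5, which encode ferritin heavy chain and a fatty acid binding protein, fell by 0.62 and 0.79 on the log2 scale. Lpl, lipoprotein lipase, rose by 1.51, but here PS19 mouse 3 was the lowest (51.4 CPM, against 124 to 230 CPM in the other 4). In the 10-month mice Lpl was 38.9 to 72.1 CPM, so its highest PS19 values did not go with the highest values of the other members.

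Of 14 resting microglial genes tested, 5 rose and none fell (median log2 fold change 0.48), beside 14.7% of all genes higher and 14.9% lower. With only the 10 mice compared in the fit, 9 rose, beside 15 disease-associated microglial genes, and the difference between the lists was not tested. P2ry12, the purine receptor of resting microglia, was 45.0 to 65.0 CPM in the PS19 mice and 49.9 to 56.8 CPM in the 10-month mice (log2 fold change 0.12, adjusted p = 0.496, edgeR). Tmem119 was 30.98 to 47.1 CPM against 26.4 to 33.9 CPM (0.49, adjusted p = 0.075, edgeR), and it was called higher in 6 of 22 alternatives, among them the fit of only the 10 mice (adjusted p = 0.0142). Cx3cr1, the fractalkine receptor, rose by 0.70 on the log2 scale, a call lost without PS19 mouse 3 (0.48, adjusted p = 0.0611, edgeR) and without 10-month mouse 3. The growth factor receptor gene Csf1r rose by 0.88 and the transcription factor gene Sall1 by 0.71. Csf1r and Sall1 stayed called in each of the 22 alternative analyses.

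Of 19 lysosomal genes tested, 11 rose and none fell (median 0.55), beside 14.7% of all genes higher and 14.9% lower. In 8 of the 19 all PS19 mice lay above all 10-month mice, beside 10.4% of all genes tested. Grn, which encodes progranulin, was 100, 71.8, 116, 108 and 104 CPM in the PS19 mice and 39.6 to 53.1 CPM in the 10-month mice (log2 fold change 1.09 ± 0.23, adjusted p = 0.00244, edgeR). Man2b1, lysosomal alpha-mannosidase, ranged from 57.9 to 127 CPM against 31.8 to 39.96 CPM (1.23, adjusted p = 0.000562, edgeR). Abca1, the cholesterol exporter that loads lipid onto ApoE, was chosen after its values were seen. It was 107, 85.2, 277, 185 and 142 CPM in the PS19 mice and 34.4 to 55.6 CPM in the 10-month mice (1.83, adjusted p = 0.000363, edgeR).

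Complement genes were also higher in the PS19 mice. Of 12 tested members 5 rose and none fell, at a median of 1.14, beside 14.7% of all genes higher and 14.9% lower. C2, Cfb and C5ar1 were too low to test. C4b, the C4 component (chromosome 17, 34728380 to 34743882, minus strand), was 127, 96.9, 442, 265 and 173 CPM in PS19 mice 1 to 5 and 40.1, 42.2, 36.5, 38.5 and 32.3 CPM in the 10-month mice. Every PS19 mouse was above every 10-month mouse, with a log2 fold change of 2.54 ± 0.61 (adjusted p = 0.00567, edgeR). C1qa, a chain of the initiating C1q complex, was 139, 75.5, 292, 197 and 183 CPM against 48.6 to 53.6 CPM (1.80 ± 0.44, adjusted p = 0.00579, edgeR). Of the other C1q chains, C1qb was not called, though it was called higher in 10 of 22 alternatives. C1qc rose, but its call was lost in 4 of 22, among them the fit without PS19 mouse 3 (adjusted p = 0.0653, edgeR). C3ar1, the receptor of a C3 fragment, rose by 2.32 and Itgb2, a subunit of complement receptor 3, by 1.62. C3 itself was 2.99, 6.98, 38.9, 18.3 and 9.65 CPM against 0.811 to 5.41 CPM and was not called (2.58 ± 1.06, adjusted p = 0.0769, edgeR). When the 1-month mouse whose label names the other virus was left out of the fit, 9 of 13 tested rose.

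Reactive astrocyte genes rose, while the called shares of resting astrocyte genes were near those of all genes. Of 21 reactive astrocyte genes tested, 10 rose and none fell (median 1.36), beside 14.7% of all genes higher and 14.9% lower. Lcn2, Steap4 and Slc10a6 were too low to test. Gfap, the astrocytic intermediate filament (chromosome 11, 102887336 to 102900912, minus strand), was 1862, 975, 4083, 2664 and 1924 CPM in PS19 mice 1 to 5 and 807, 945, 714, 683 and 822 CPM in the 10-month mice. PS19 mouse 2 was just above the highest 10-month mouse, and the log2 fold change was 1.53 ± 0.36 (adjusted p = 0.00514, edgeR). Serpina3n, a secreted protease inhibitor, was 139, 97.1, 268, 138 and 114 CPM against 28.3 to 59.2 CPM (1.68 ± 0.31, adjusted p = 0.000997, edgeR). Osmr, the oncostatin M receptor, rose by 2.34, the adhesion receptor gene Cd44 by 2.19 and the asparaginase gene Aspg by 2.19. Vim, vimentin, rose by 1.58 and lost its call without PS19 mouse 3 (1.08, adjusted p = 0.0574, edgeR).

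Of 16 genes of resting astrocytes, 3 rose and 3 fell (median 0.09), beside 14.7% of all genes higher and 14.9% lower. With 16 genes these counts say nothing particular to these cells. The potassium channel gene Kcnj10 rose by 0.97, while Glul, which encodes glutamine synthetase, fell by 0.43 on the log2 scale. Etnppl, a phospholyase of astrocytes, was 2.67, 7.76, 20.7, 11.8 and 10.9 CPM in the PS19 mice and 25.3 to 61.1 CPM in the 10-month mice. It fell by 1.70 (SE 0.42, adjusted p = 0.00652, edgeR) and by 3.01 in mice with the Acss2 virus (adjusted p = 0.000399, edgeR).

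**Figure D2:**
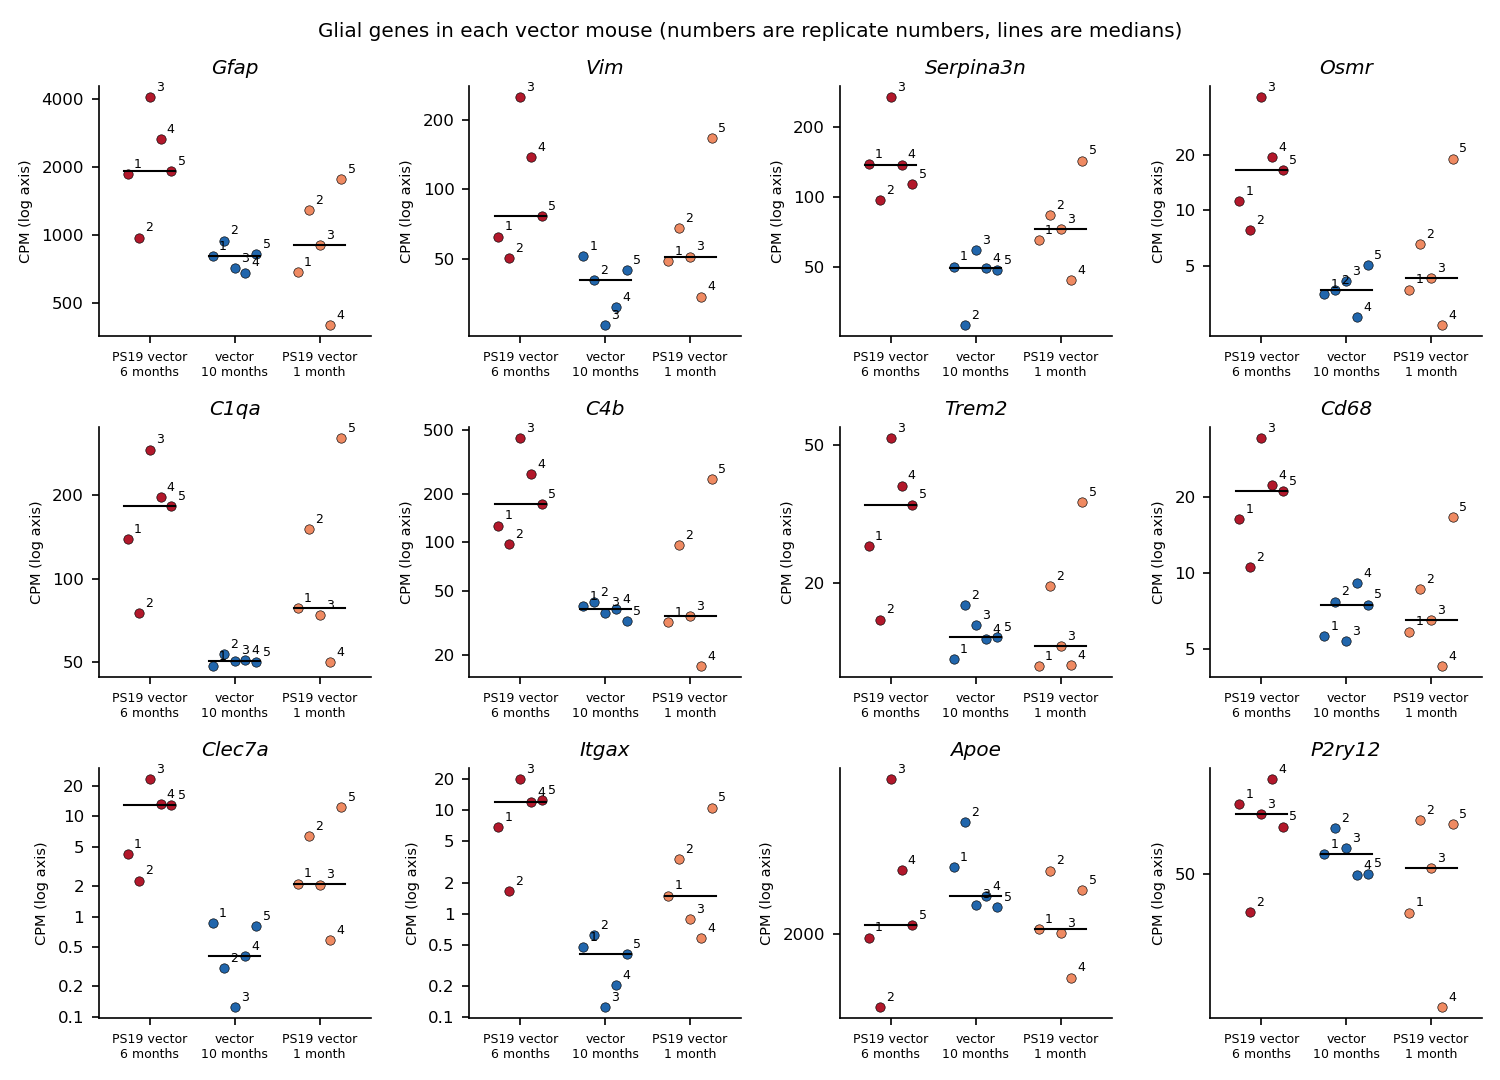
Levels in CPM (log axes) of 12 glial genes in each vector mouse: PS19 at 6 months, 10-month, and PS19 at 1 month. Points are mice with their replicate numbers and lines are medians. PS19 mouse 3 at 6 months is the highest of its group in all panels but P2ry12, and 1-month mouse 5 is the highest of its group in 10 of the 12.

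Interferon-stimulated genes were higher, with a large spread among the mice. Of 29 listed, all but Oas2 were tested, and of those 28, 10 rose, none fell, and all 28 log2 fold changes were above 0 (median 2.03). Of all genes tested 14.7% rose and 14.9% fell. In 16 of the 28 every PS19 mouse was above every 10-month mouse, beside 10.4% of all genes tested. Usp18, which switches off interferon receptor signalling, was 2.59, 1.94, 7.27, 4.44 and 4.69 CPM in the PS19 mice and 0.0949 to 0.768 CPM in the 10-month mice (log2 fold change 3.53 ± 0.93, adjusted p = 0.00974, edgeR). Lgals3bp, a secreted galectin-binding protein, was 37.4, 31.8, 88.8, 72.2 and 60.0 CPM against 9.49 to 15.4 CPM (2.30 ± 0.67, adjusted p = 0.0171, edgeR). The sensors and effectors Oasl2 and Ifi44 rose by 2.78 and 3.93, and both calls were lost when any of 6 single mice was left out, PS19 mouse 3 among them. Ifit3 (1.33, adjusted p = 0.137, edgeR) and Irf7 (2.97, adjusted p = 0.0522, edgeR) were not called, but Irf7 was called higher in 10 of 22 alternatives and Ifit3 in 2.

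The count of interferon genes depended on which mice shared the fit. With only the 10 mice compared it was 20 of 25 tested, without 1-month mouse 5 in the fit it was 23 of 28, and without 10-month mouse 1, 3 or 4 it was 6. Among the 1-month PS19 mice, Ifit3 was 61.2 CPM in mouse 5 and 25.02 CPM in mouse 2, and 2.96 to 8.02 CPM in the other 3.

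Promoter sequences of interferon genes are shown because all 28 tested had log2 fold changes above 0 and a response element is known for such genes. In the 250 bases before the RefSeq gene start (GRCm38.p6), the element core GAAANNGAAA was searched on both strands. It was present in 11 of the 22 interferon list members with a promoter in the RefSeq table (50%) and in 821 of 27025 promoters of all genes (3.04%). Of the 10 members that rose, 8 had a promoter in the table and 4 of those held the core. Among tested genes called higher 2.36% held it, and among those called lower 2.47%. A match is a description of the letters and no evidence of binding. The first 4 sequences are those 4 members and the last is B2m, with 20 bases on each side, the core in capitals (in Rsad2, Stat2 and Trim30a as its reverse complement), 5′ to 3′ along the gene.
Cxcl10, chr5:92349073-92349122, minus strand: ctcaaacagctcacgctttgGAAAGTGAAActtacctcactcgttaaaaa
Rsad2, chr12:26456543-26456592, minus strand: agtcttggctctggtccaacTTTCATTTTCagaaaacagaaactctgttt
Stat2, chr10:128270256-128270305, plus strand: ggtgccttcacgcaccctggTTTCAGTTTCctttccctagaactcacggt
Trim30a, chr7:104465200-104465249, minus strand: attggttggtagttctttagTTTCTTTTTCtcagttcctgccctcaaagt
B2m, chr2:122147528-122147577, plus strand: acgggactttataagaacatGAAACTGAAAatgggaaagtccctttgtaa

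Beside these sequences the levels were as follows. Cxcl10, a chemokine that draws T cells, was 2.34, 2.38, 6.76, 4.14 and 4.96 CPM in the PS19 mice and 0 to 0.768 CPM in the 10-month mice (log2 fold change 4.28, adjusted p = 0.029, edgeR). The call was lost without 10-month mouse 1, 3, 4 or 5, at an adjusted p of up to 0.079 in edgeR. Rsad2, the antiviral enzyme viperin, was 2.99, 2.62, 7.44, 4.39 and 4.43 CPM against 0.375 to 1.62 CPM (2.15, adjusted p = 0.0182, edgeR). Stat2, a transcription factor of the pathway, was 21.0 to 30.7 CPM against 12.9 to 17.0 CPM (0.86, adjusted p = 0.014, edgeR). Trim30a, an interferon-induced ligase, was 3.78 to 11.9 CPM against 1.01 to 2.18 CPM (2.11, adjusted p = 0.0145, edgeR). The groups did not overlap for any of these 4 genes.

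Antigen presentation genes had mostly positive differences, but 1 of 15 rose, below the 14.7% of all genes, and none without PS19 mouse 3. That gene was B2m, the light chain of class I molecules, at 140, 110, 341, 220 and 196 CPM against 58.0 to 75.3 CPM (log2 fold change 1.57 ± 0.50, adjusted p = 0.0271, edgeR), and its call was also lost without 10-month mouse 3 or 4. H2-K1, a class I heavy chain, was 29.1, 24.4, 127, 83.0 and 59.7 CPM against 16.0 to 27.2 CPM (1.56, adjusted p = 0.114, edgeR). Cd74, the class II invariant chain, was 12.2, 3.15, 54.3, 44.6 and 45.1 CPM against 0.999 to 5.22 CPM (3.21, adjusted p = 0.0738, edgeR). Cd74 also differed widely among the 1-month PS19 mice, with 730 CPM in mouse 5, 177 CPM in mouse 2 and 1.01 CPM in mouse 4. The list's median was 1.59, and 9 genes rose when only the 10 mice were fitted.

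Of 14 cytokine, chemokine and NF-kB genes tested, 4 rose and none fell (median 1.25), beside 14.7% of all genes higher and 14.9% lower. The risers included Tlr2, a receptor for microbial lipids, which ranged from 2.76 to 14.4 CPM against 1.04 to 2.02 CPM (log2 fold change 2.50), and its co-receptor Cd14 (1.64). The genes Ccl2, Ccl4, Cxcl13, Tnf, Il1b and Il6 were too low to test.

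Markers of cells that enter from the blood were low. The summed level of 16 T and NK cell markers was 3.49 to 11.7 CPM in the PS19 mice and 2.62 to 5.38 CPM in the 10-month mice, and none of the 3 that could be tested was called. Cd3e, a chain of the T cell receptor complex, had 0 reads in all 5 10-month mice and in PS19 mice 1 and 2, and 8, 4 and 13 reads in PS19 mice 3, 4 and 5. Cd8a had 1, 2, 19, 8 and 14 reads in the PS19 mice and 1 read in 1 of the 10-month mice. The B cell list summed to 20.9 to 36.1 CPM against 18.2 to 48.1 CPM, and the border macrophage, monocyte and neutrophil list to 4.07 to 9.04 CPM against 3.85 to 9.52 CPM. The part of such cells in the glial and immune values was not tested.

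**Figure D3:**
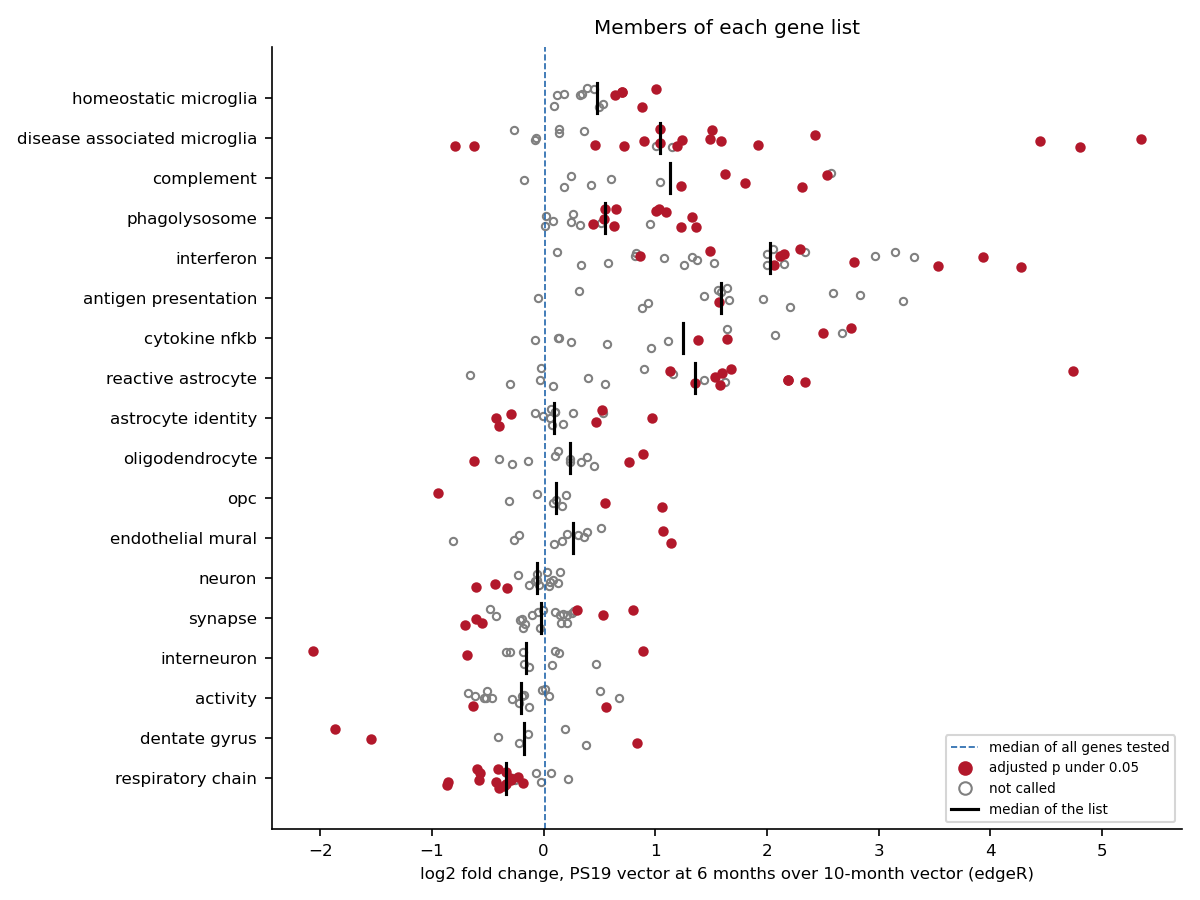
Log2 fold changes (PS19 vector at 6 months over 10-month vector, edgeR) of the tested members of 18 gene lists. Filled points had an adjusted p under 0.05, open points did not, black bars are list medians and the dashed line is the median of all genes (0.01). The microglial, complement, interferon and reactive astrocyte lists lie to the right and the respiratory chain list to the left.

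In the oligodendrocyte and neuronal lists the called shares were near or below the 29.5% of all genes, so their counts say nothing particular to these cells. Of 13 oligodendrocyte genes 2 rose and 1 fell. The risers were Mag, myelin-associated glycoprotein, by 0.89 and Ugt8a, a myelin lipid enzyme, by 0.77. Mbp, myelin basic protein, was not called (log2 fold change -0.40, adjusted p = 0.168, edgeR). Of 9 oligodendrocyte precursor genes 2 rose and 1 fell (median 0.11), near the 29.5% of all genes called. None of the 9 was called in mice with the Acss2 virus. Cspg4, the NG2 proteoglycan of oligodendrocyte precursors, was 18.8, 17.2, 19.7, 19.0 and 18.2 CPM in the PS19 mice and 8.14 to 10.1 CPM in the 10-month mice (1.06 ± 0.10, adjusted p = 4.61e-06, edgeR). In mice with the Acss2 virus its log2 fold change was 0.47 (adjusted p = 0.122, edgeR).

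Of 15 pan-neuronal genes none rose and 3 fell. Rbfox3, the neuronal nuclear protein NeuN, was 261, 226, 192, 192 and 265 CPM in the PS19 mice and 277 to 320 CPM in the 10-month mice, without overlap, and it fell by 0.43 (SE 0.12, adjusted p = 0.013, edgeR). Slc17a7, the vesicular glutamate transporter, was 778 and 923 CPM in PS19 mice 3 and 4 and 1344 to 1595 CPM in the other 3, against 1170 to 1696 CPM (log2 fold change -0.23, adjusted p = 0.332, edgeR). Of 24 synaptic genes 3 rose and 3 fell. The fallers were the postsynaptic genes Nrgn (0.70 lower, neurogranin), Dlg4 (0.61 lower, PSD-95) and Shank1 (0.55 lower, a scaffold), and all were called lower in mice with the Acss2 virus too. The dendritic gene Ddn, chosen after its values were seen, was 2708, 2192, 836, 2080 and 2978 CPM in the PS19 mice and 3543 to 4759 CPM in the 10-month mice. It fell by 0.94 (adjusted p = 0.0112, edgeR), and its lowest value was in PS19 mouse 3, which had the highest glial values.

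Of 18 genes induced by neuronal activity 1 rose and 1 fell, below the 29.5% of all genes called. Their median log2 fold change was -0.20, with 5 of the 18 above 0. Over 22 alternatives between 1 and 9 of them fell. Fos was 24.7 to 38.9 CPM against 23.1 to 45.5 CPM (log2 fold change 0.02, adjusted p = 0.96, edgeR), and Arc was 204 to 410 CPM against 177 to 499 CPM. In mice with the Acss2 virus 9 of the same 18 fell, beside 7.85% of all genes. Of 12 interneuron genes 1 rose and 2 fell, near the 29.5% of all genes called. Among the fallers was Cort, the neuropeptide cortistatin, at 0.454 to 1.56 CPM against 1.84 to 7.47 CPM. Cort fell by 2.06 (adjusted p = 0.000956, edgeR).

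Markers of hippocampal fields and of neighbouring tissue were compared because the tissue came from 2 separate experiments. Of 8 dentate gyrus markers 1 rose and 2 fell, beside 14.7% of all genes higher and 14.9% lower. With 8 markers these counts say nothing particular to this field. C1ql2, a synaptic organizer of granule cells, was 30.2 to 67.0 CPM in the PS19 mice and 101 to 186 CPM in the 10-month mice. C1ql2 fell by 1.55 (adjusted p = 0.000564, edgeR) and Tdo2, tryptophan dioxygenase, by 1.87 (adjusted p = 0.000568, edgeR). No CA1, thalamic or ventral hippocampal marker was called, while 1 CA3 and 1 cortical layer marker rose and 1 choroid plexus and 1 meningeal marker fell. Choroid plexus markers summed to 90.3 to 474 CPM in the PS19 mice and 79.2 to 4887 CPM in the 10-month mice. The highest value was in 10-month mouse 1, whose Ttr was 4384 CPM, against 30.1 to 330 CPM in the other 4.

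Among genes called the same way in both the vector and the Acss2 virus mice, with no overlap of the groups in either, several of the largest changes were in transcripts with near-identical copies. Rps7-ps3, a processed pseudogene of a ribosomal protein gene, was 9.83 to 11.7 CPM in the PS19 mice and 0.404 to 0.614 CPM in the 10-month mice. Its parent Rps7 was 58.7 to 68.8 CPM against 161 to 216 CPM. The sum of the pair was 68.8 to 79.5 CPM in the PS19 mice and 162 to 216 CPM in the 10-month mice. The direction of such pairs is uncertain, since the way reads shared by copies were counted is not given in the sources used here. Rps3a3, Atp6v0c-ps2 and Eno1b were at most 0.999 CPM in every 10-month mouse and at least 13.02 CPM in every PS19 mouse. Rpl3-ps1 and Tmem181b-ps rose by 3.54 and 2.65.

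Outside such copies, Col11a1, a fibrillar collagen chain, was 29.3, 36.2, 7.16, 19.5 and 22.3 CPM in the PS19 mice and 0.949 to 3.43 CPM in the 10-month mice (log2 fold change 3.68 ± 0.46, adjusted p = 4.65e-05, edgeR). PS19 mouse 3, highest for the glial genes, was the lowest for Col11a1. H2-T24, a nonclassical class I gene, rose by 2.92. Myoc, which encodes myocilin, was 0.485, 2.28, 6.82, 1.36 and 5.56 CPM in the PS19 mice and 18.5 to 65.7 CPM in the 10-month mice (fell by 3.34, SE 0.57, adjusted p = 0.000513, edgeR). Pla2g2f, Acp1, Krt9 and Fam163a fell by 2.83, 2.22, 1.85 and 1.74, and the noncoding RNA genes Sox2ot and Gas5 by 1.65 and 1.44.

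Respiratory chain genes were lower in the vector comparison. Of 21 tested none rose and 15 fell (median log2 fold change -0.33), beside 14.7% of all genes higher and 14.9% lower. Cox4i1, a subunit of complex IV, was 366, 361, 382, 344 and 357 CPM in the PS19 mice and 604 to 715 CPM in the 10-month mice (fell by 0.86, SE 0.07, adjusted p = 2.09e-06, edgeR). Ndufb8 and Ndufv2 of complex I fell by 0.86 and 0.58. In mice with the Acss2 virus 3 of the 21 rose and 1 fell, at a median of 0.04. Gene length moved with this result. Among tested genes with 57 to 2667 exonic bases (GENCODE vM21) the median log2 fold change was -0.16, and among those with 6754 to 123179 bases 0.15, against 0.03 and 0.00 in mice with the Acss2 virus. With a length trend removed per library, 13 of the 21 fell (median -0.25), while 14 disease-associated microglial, 11 reactive astrocyte, 6 complement and 10 interferon genes rose.

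The glial values followed the same order of PS19 mice in several lists. By mean log2 CPM of the list, PS19 mouse 3 was highest, then 4, then 5, for disease-associated microglia (5.84, 5.50 and 5.43), complement (5.29, 4.81 and 4.63) and interferon genes (3.95, 3.46 and 3.21). PS19 mouse 2 was lowest in all of them (4.56, 3.91 and 2.37), yet it lay above the highest 10-month mouse in each (4.38, 3.81 and 1.72). Without PS19 mouse 3, 12 disease-associated microglial, 8 reactive astrocyte, 4 complement, 8 lysosomal and 7 interferon genes rose. That mouse also had the lowest dentate gyrus score (4.59, against 5.23 to 5.94 in the other 4) and the lowest synaptic score (8.49, against 8.66 to 9.04). Its 9 cortical layer markers summed to 392 CPM, against 191 to 210 CPM in the other 4 and 198 to 248 CPM in the 10-month mice. It was the highest PS19 mouse in 13 of 13 oligodendrocyte and 15 of 16 resting astrocyte genes. PS19 mouse 4 had 501 CPM of thalamic markers, against 122 to 237 CPM in the other 4 and 130 to 480 CPM in the 10-month mice. The part of tissue composition in the glial values was not tested.

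**Figure D4:**
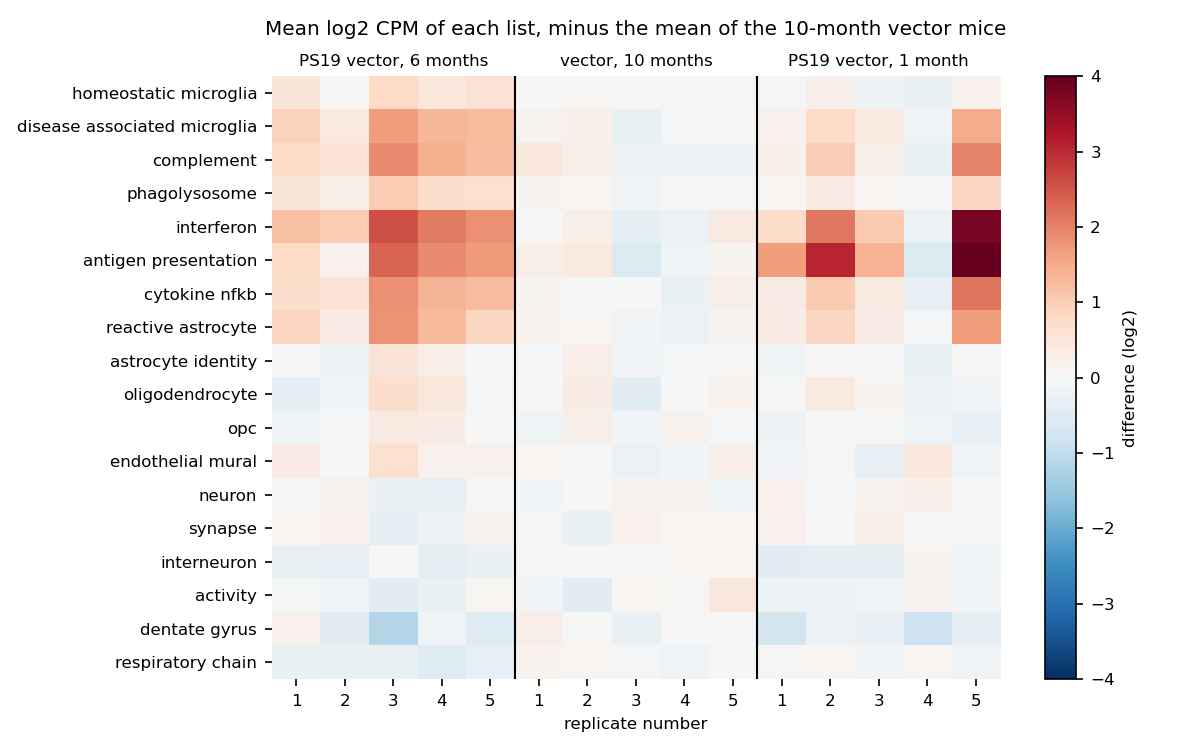
Mean log2 CPM of 18 gene lists in each vector mouse, minus the mean of the 10-month vector mice (colour, log2). Columns are mice by replicate number within 3 groups. At 6 months the disease-associated microglial, complement, interferon and reactive astrocyte rows are highest in PS19 mouse 3, and among the 1-month PS19 mice in mouse 5.

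The 1-month PS19 mice come from the same count table as the 6-month ones. They share their control mice with the comparison above, so each contrast's own values are given. Age and time since injection go together between 1 and 6 months, and library composition differed as well. The part of these in the values below was not tested. At 1 month against the 10-month mice 3 of 25 disease-associated microglial, 3 of 21 reactive astrocyte, 2 of 12 complement, 14 of 28 interferon and 11 of 15 antigen presentation genes rose, beside 6.37% of all genes. B and plasma cell markers moved with these: 3 of 4 tested rose at 1 month (median 3.91) and 3 of 4 fell from 1 to 6 months. In 1-month mouse 5 that list summed to 294 CPM and the T and NK cell list to 46.4 CPM, against at most 48.1 and 5.38 CPM in the 10-month mice. The part of these cells was not tested. Between 6 months and 1 month 5 disease-associated microglial, 3 reactive astrocyte, 3 lysosomal and 3 resting microglial genes rose, and no complement, interferon or antigen presentation gene (5.40% of all genes rose). Gfap was 688, 1291, 905, 400 and 1771 CPM at 1 month and rose by 1.19 from 1 to 6 months (adjusted p = 0.0487, edgeR). Cd68 rose by 1.33 (adjusted p = 0.0222, edgeR) and Ctsd by 0.74 (adjusted p = 0.0441, edgeR). Of 21 respiratory chain genes none rose and 10 fell from 1 to 6 months (median -0.34). At 1 month against the 10-month mice 3 of the 21 rose and 4 fell. C4b at 1 month was 31.7, 96.2, 34.5, 17.0 and 247 CPM. Mouse 5 at 1 month thus had a C4b level within the 6-month range, and mouse 2 one just below it. The treatment label of mouse 5 names the Acss2 virus, while its title names the vector. Its Acss2 was at the level of vector mice. That level does not decide between label and title, since Acss2 did not show the virus in every PS19 mouse labelled with it.

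The same contrast was made in mice with the Acss2 virus, which share no sample with the vector mice. Strain, count table, dose, time since injection, behaviour and age separate these groups in the same way. The part of these differences in changes common to both contrasts was not tested. Of 14084 genes tested 7.24% were higher and 7.85% lower in the PS19 mice. Acss2 itself was 44.9 to 235 CPM in those 5 PS19 mice and did not show the virus in each of them. The glial lists moved in the same direction: 13 of 25 disease-associated microglial genes rose (median 0.95), 8 of 12 complement genes (0.87), 10 of 19 reactive astrocyte genes (0.80), 11 of 19 lysosomal genes (0.43) and 14 of 22 interferon genes (0.99). None of the members of these lists fell. Prnp was 1616 to 2087 CPM against 786 to 921 CPM. C4b was 124, 57.4, 136, 117 and 98.6 CPM against 34.0 to 41.4 CPM (log2 fold change 1.54 ± 0.17, adjusted p = 7.55e-05, edgeR). Itgax rose by 3.46, Clec7a by 3.35, Serpina3n by 1.18, C1qa by 1.47 and Gfap by 1.10, and Trem2 was not called (0.87, adjusted p = 0.0525, edgeR).

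Over 14076 genes tested in both sets of mice, 656 were called higher in both, 714 lower in both and 3 in opposite directions. These were 32.0% of the calls in vector mice and 64.5% of those in mice with the Acss2 virus. The test of whether the contrast differed between the viruses called 0 genes (0.00% of 14807) in edgeR, with 2394 at an unadjusted p under 0.05, and 229 genes in DESeq2. For C4b the difference of the log2 fold changes was 1.01 (adjusted p = 0.234) and for Gfap 0.45 (adjusted p = 0.652, edgeR).

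**Figure D5:**
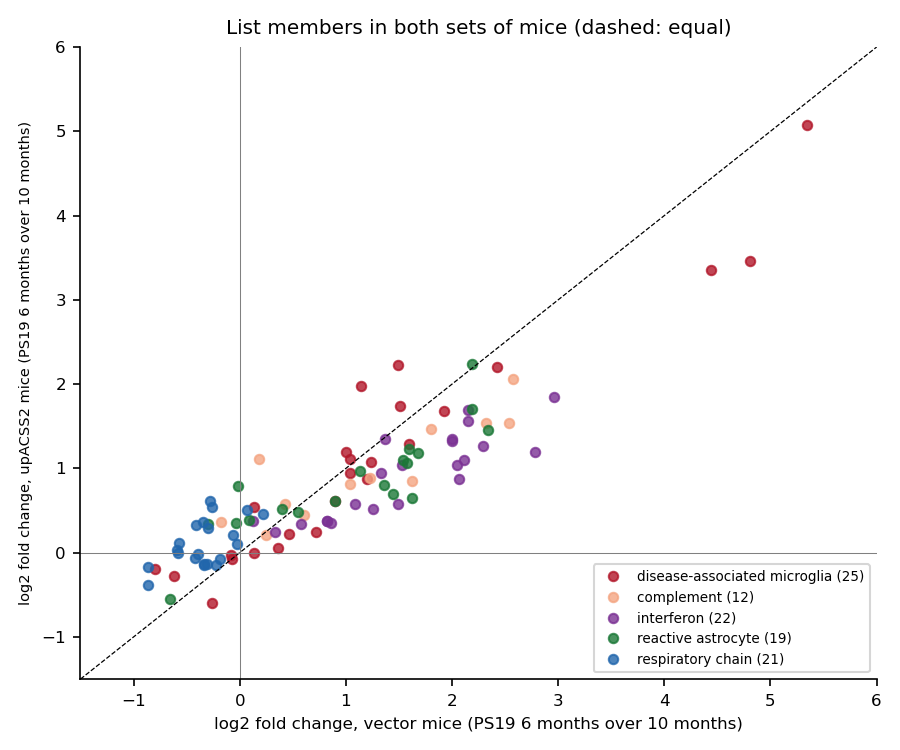
Log2 fold change in mice with the Acss2 virus (y axis) against that in vector mice (x axis), both PS19 at 6 months over 10 months, for the members of 5 lists tested in both; the dashed line marks equal values. Microglial, complement, interferon and reactive astrocyte members lie mostly above 0 on both axes, and the respiratory chain members lie mostly below 0 on the x axis and on both sides of 0 on the y axis.

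The aged vector mice, dissected as whole hippocampus in another table, gave a further reference that is older than the PS19 mice. Aged mouse 1 had a mean log2 CPM of 1.56 over 4 Y chromosome genes, against 4.91 to 5.29 in the other aged mice. The sum of nuclear noncoding RNAs was 2091 to 3320 CPM in aged mice 1 to 3 and 479 to 850 CPM in the others. All 12 are kept as 1 range. In 12 such mice C4b was 44.6 to 136 CPM, Gfap 397 to 1116 CPM, Serpina3n 22.3 to 77.3 CPM and C1qa 32.3 to 71.1 CPM. Itgax was 0.123 to 2.11 CPM, Clec7a 0.351 to 4.64 CPM and Cst7 0.113 to 1.64 CPM. All 5 PS19 mice at 6 months lay above all aged mice for Serpina3n and C1qa, 4 of 5 for Itgax, Gfap and Cst7, and 3 of 5 for C4b and Clec7a. The tables, tissue pieces, doses and times since injection differ, and this was not tested.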

How the data were processed

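RNA-seq of mouse hippocampus was analysed from the raw counts per gene symbol that the authors deposited, 1 column per mouse. STAR, featureCounts, HTSeq, DESeq2 and the build mm10 are named in the submitters' processing notes, without versions or roles, and the strand setting is not given in the sources used here. The 3 mouse tables hold the same 55367 symbols; 12 columns of mice with the Acss2 virus in the aged table were not used.

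Counts of the PS19 vector mice at 6 months and 1 month and of the 10-month vector mice (15 libraries) entered 1 fit in edgeR 4.0.16 (R 4.3.3): filterByExpr by group, TMM scaling, quasi-likelihood F test, Benjamini-Hochberg adjustment over all genes, threshold 0.05, two-sided. Mice with the Acss2 virus (11 libraries) were fitted alone, and the difference between viruses over 21 libraries. CPM use library sizes scaled by TMM over all mice used, on the genes tested, and list scores are mean log2 CPM with a prior count of 2. SE of a log2 fold change comes from the F statistic. The edgeR fit was checked by simulation with known changes. Of 55 library pairs of the same group none was a duplicate, the smallest chi-square divided by its number of genes being 3.00. As nothing ties the mice to litters, p-values measure the spread between these samples.

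The members and lists were chosen with earlier results of these data known. Named genes are Mapt, Prnp and Acss2, list members called in either direction or defining their list, and the largest changes called the same way in both viruses without overlap, at a mean log2 CPM of at least 1 and with a count in at least 3 libraries of each table. Positions are from GENCODE vM21 (GRCm38). Alternatives were DESeq2 1.42.0, RLE factors, no filter, other sets of libraries, a replicate block, thinning, other scalings and each mouse left out. Alternatives chosen after seeing the data were a gene length offset, both viruses in 1 fit, and the fit without 1-month mouse 5. Some list members are counted but not reported here by name.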

Additional observations from a re-analysis of the deposited data

Results flagged for a closer look

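In groups of 5 mice, a value was singled out when it stood apart from the other 4 by Dixon's test at the 95% level. Of 134 groups checked 9 had such a value, where chance gives about 1 in 20. Among single genes these were Mapt in 10-month mouse 4 (610 CPM), Serpina3n in PS19 mouse 3 (268 CPM), Tmem119 in 10-month mouse 5 (33.9 CPM), Rbfox3 in 10-month mouse 2 (277 CPM) and Ttr in 10-month mouse 1 (4384 CPM). Among mean log2 CPM of lists they were the resting astrocyte list in 10-month mouse 2 (8.06), the interneuron list in PS19 mouse 3 (5.60), the CA1 list in PS19 mouse 5 (7.49) and the respiratory chain list in PS19 mouse 4 (6.77). Without PS19 mouse 3 the log2 fold change of Serpina3n was 1.36 (adjusted p = 0.0016, edgeR).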

How the results depend on the processing

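The count of called genes in the main comparison stayed within 1.5 times of 4541 in every alternative run, from 3851 to 4346 with 1 mouse left out, and was 3901 with the replicate number as a block. Deviations of same-numbered mice correlated from -0.22 to 0.16 in the main comparison, from -0.18 to 0.39 in the upACSS2 comparison and from -0.32 to 0.07 between 6 months and 1 month. Not every pair was over 0.1 in any of them, so the mice were taken to share only a number, although upACSS2 mice 1 and 2 correlated best with their own number. The block lowered the upACSS2 comparison from 2126 to 1145 and that of 6 months against 1 month from 1503 to 946. The latter was 2265 in DESeq2, 995 without the filter and 728 to 1712 with 1 mouse left out; the upACSS2 comparison then ran from 1446 to 2370 and the 1-month comparison with 10-month mice from 1494 to 2464. The difference between viruses was 229 genes in DESeq2. Complement genes that rose numbered 8 with all 31 libraries, 9 with both viruses together, 9 without 1-month mouse 5 and 4 to 6 with 1 mouse left out. Interferon genes numbered 18 in DESeq2, 20 with the 10 libraries, 19 with all 31, 24 with both viruses, 23 without 1-month mouse 5 and 6 to 13 with 1 mouse left out. Respiratory chain genes that fell numbered 9 with both viruses together. The cause was not tested. With 1 mouse left out, disease-associated microglial genes that rose numbered 12 to 15, reactive astrocyte genes 8 to 10 and lysosomal genes 8 to 12, the ratio of Prnp was 1.95 to 2.08, of Mapt 0.931 to 0.993 and of Acss2 0.981 to 1.05. Without TMM 71.2% of the calls were higher, against 49.7%, and the median of all genes moved to 0.12. No named gene reversed a called direction in the alternatives. The 10-month libraries hold fewer counts than the PS19 ones, and Cst7 and Cd3e had at most 1 read in each of them.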
